A study of Mus musculus with 12 samples.

Results

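The switch that starts meiotic division was followed at the level of its messenger RNAs. It consists of the kinase CDK1, the B cyclins that activate it, the CDC25 phosphatases that remove its inhibitory phosphates and the WEE family kinases that add them. Its genes were taken by symbol from the deposited gene count table: *Cdk1*, *Ccnb1*, *Ccnb2*, *Ccnb3*, *Cdc25a*, *Cdc25b*, *Cdc25c*, *Wee1*, *Wee2* and *Pkmyt1*, 10 of 56691 genes. Each symbol matched 1 identifier, and all 10 passed the filter on low counts in every comparison. RNA of C57BL/6 mouse oocytes of 2 genotypes, WT and *Alkbh5*-/- (KO), was sequenced at 3 stages: the germinal vesicle (GV) stage, germinal vesicle breakdown (GVBD) and metaphase II (MII). Each of the 6 groups had 2 libraries. ALKBH5 is an RNA demethylase that removes N6-methyladenosine, and the KO is a whole-animal knockout made with CRISPR-Cas9 by removing the exon that carries the start codon. According to the study's methods, juvenile females were primed with PMSG, fully grown GV oocytes were stripped of cumulus cells and cultured after release from milrinone, an inhibitor that holds them at GV, and samples were taken by time in culture. The same text says that most KO oocytes failed to break down the germinal vesicle and rarely extruded a polar body. It does not say if the oocytes pooled for a KO library were picked for having reached the named stage, so for KO the labels GVBD and MII are read as sampling times.

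A fully grown oocyte waits in prophase with CDK1 held inactive. WEE2, the oocyte form of the WEE kinases, and PKMYT1 phosphorylate CDK1 and keep it off while cyclic AMP is high, and the ubiquitin ligase APC/C with its activator FZR1 keeps cyclin B low. When cyclic AMP falls, CDC25B, the CDC25 phosphatase best known for this step in mouse oocytes, removes the phosphates, CDK1 with cyclin B becomes active as maturation-promoting factor, and the germinal vesicle breaks down. The oocyte genome is transcriptionally silent during these steps, so the messenger RNAs used come from growth, and their poly(A) tails and stability control how much protein is made. Changes in poly(A) tail length bring dormant messengers such as *Ccnb1* into translation as meiosis proceeds.

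The genes lie on 9 chromosomes (positions of GENCODE M21 on GRCm38). *Ccnb1* (ENSMUSG00000041431) is at chr13:100778650-100786570 on the minus strand, *Cdk1* (ENSMUSG00000019942) at chr10:69335146-69352938 on the minus strand, *Wee1* (ENSMUSG00000031016) at chr7:110122046-110143286 on the plus strand and *Wee2* (ENSMUSG00000037159) at chr6:40439088-40466813 on the plus strand. *Cdc25a* (ENSMUSG00000032477) is at chr9:109875579-109893895 and *Cdc25b* (ENSMUSG00000027330) at chr2:131186949-131198497, both on the plus strand. *Ccnb2* (ENSMUSG00000032218) shares chromosome 9, at chr9:70407692-70421547 on the minus strand. *Cdc25b* overlaps *Spef1*, *Wee1* overlaps 1600010M07Rik, *Pkmyt1* overlaps *Paqr4* and *Cdc25c* overlaps Gm3550, each on the opposite strand, and *Cdc25a* holds Mir7089 on its own strand. Use of strand in counting is not given in the sources used here, so reads of these antisense partners cannot be told apart.

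The study's methods describe cDNA primed at poly(A), whereas the sample protocol describes another preparation, so how the messengers were captured is not settled. The end of each messenger, where the poly(A) tail is added, is shown for 4 genes on which the levels below turn: the kinase, its main cyclin and the WEE kinases with the steepest and the flattest course. Each line gives 30 bases from the exonic 3′ end of the principal transcript, 5′ to 3′ on the gene's strand, in GRCm38 (GENCODE M21). Capitals mark the polyadenylation hexamer (AATAAA or ATTAAA) and, in *Wee2*, also the letters TTTTAAT of a cytoplasmic polyadenylation element.
Cdk1, chr10:69335156-69335185, minus strand: ctaatggcacggAATAAAaggattattcac
Ccnb1, chr13:100778656-100778685, minus strand: ctttatgttgctAATAAAcatagttttcga
Wee1, chr7:110143247-110143276, plus strand: attgtctggtgtATTAAAagtcattccgtg
Wee2, chr6:40466766-40466795, plus strand: taTTTTAATccagatcattgtaAATAAAga
All 10 genes had a hexamer on the gene's strand within the last 100 bases of the transcript, as had 74.1% of 21758 genes searched the same way. The element, searched as TTTTAT or TTTTAAT on the gene's strand, was found in that window of *Wee2* and *Ccnb3*, and in 16.5% of all genes. In *Wee2* it began 46 bases from the end, with 13 bases between its last letter and the hexamer. A match is a description of these letters, and its absence from the window of *Ccnb1* says nothing of the rest of that messenger.

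Libraries held between 28.6 and 40.2 (in units of 1e6) counts each, of which 0.777 to 2.08% fell on ERCC spike-in sequences, synthetic RNAs added to every tube. Counts were scaled in proportion to the summed spike-in counts (spike-in scaled counts), so that a value follows the amount of RNA captured from the tube. If capture was at poly(A), a change in tail length between stages and a change in amount cannot be told apart. In these pools, fewer oocytes and less RNA per oocyte cannot be told apart. *Alkbh5* had 54 to 143 counts in KO libraries and 5355 to 10181 in WT libraries. The oocyte markers, 10 in all, together reached 8345 to 20892 CPM, counts scaled to a common library total. The 12 cumulus and granulosa markers together reached 46.8 to 88.0 CPM, with 1 to 4 of the 12 at 0 in each library. *Amh* and *Foxl2* had no more than 5 counts in any library. *Cyp19a1*, the highest of the 12, had 577 to 2225 counts, and *Nr5a2* had 292 to 480. Libraries of a group differed in RNA per spike-in: gene counts per ERCC count were 112 and 75.3 in WT GVBD, 73.3 and 47.0 in WT MII, then 87.9 and 54.7 in KO MII. Replicate 1 was accordingly above replicate 2 in spike-in scaled counts of all 10 genes in both MII groups and of 9 in WT GVBD. P-values measure the spread between 2 pools per group, which may be technical.

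*Ccnb1* was the most abundant of the 10 messengers. It took 0.0911 to 0.234% of all gene counts of a library, and ranked between 60 and 163 among all genes. The WT libraries had 34964 and 27301 counts of it at GV, 31275 and 48212 at GVBD, then 73318 and 79347 at MII. The KO libraries had 32047 and 35327 at GV, 32008 and 32908 at GVBD, then 60164 and 72085 at MII. Both genotypes thus had more raw counts at MII than at either earlier stage, without overlap. After scaling to the spike-ins, MII overlapped both earlier stages in each genotype. In WT the scaled counts were 41484 and 38500 at GV and 58478 and 38239 at MII. In KO they were 58346 and 45068 at GV and 60212 and 51633 at MII.

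Levels of different genes were compared per kilobase of transcript. Mean spike-in scaled counts per kilobase in WT GV were 16068 ± 848 (SD, n = 2) for *Ccnb1*, 6869 ± 135 for *Wee2*, 2688 ± 164 for *Ccnb2* and 882 ± 12.8 for *Cdk1*. The same genes led in this order in all 6 groups, with no overlap of libraries between neighbours except *Ccnb1* and *Wee2* in KO GVBD. The cyclin messenger thus outnumbered that of its kinase: the ratio of *Ccnb1* to *Cdk1* per kilobase lay between 13.7 and 23.0 in every library. All CDC25 genes, *Ccnb3*, *Wee1* and *Pkmyt1* lay below *Cdk1* in every group, at group means of 10.6 to 428 per kilobase. Among these low genes, libraries of neighbours in the order often overlapped, for example *Cdc25b* (244 ± 85.8) and *Ccnb3* (200.2 ± 9.43) in WT GV.

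**Figure D1:**
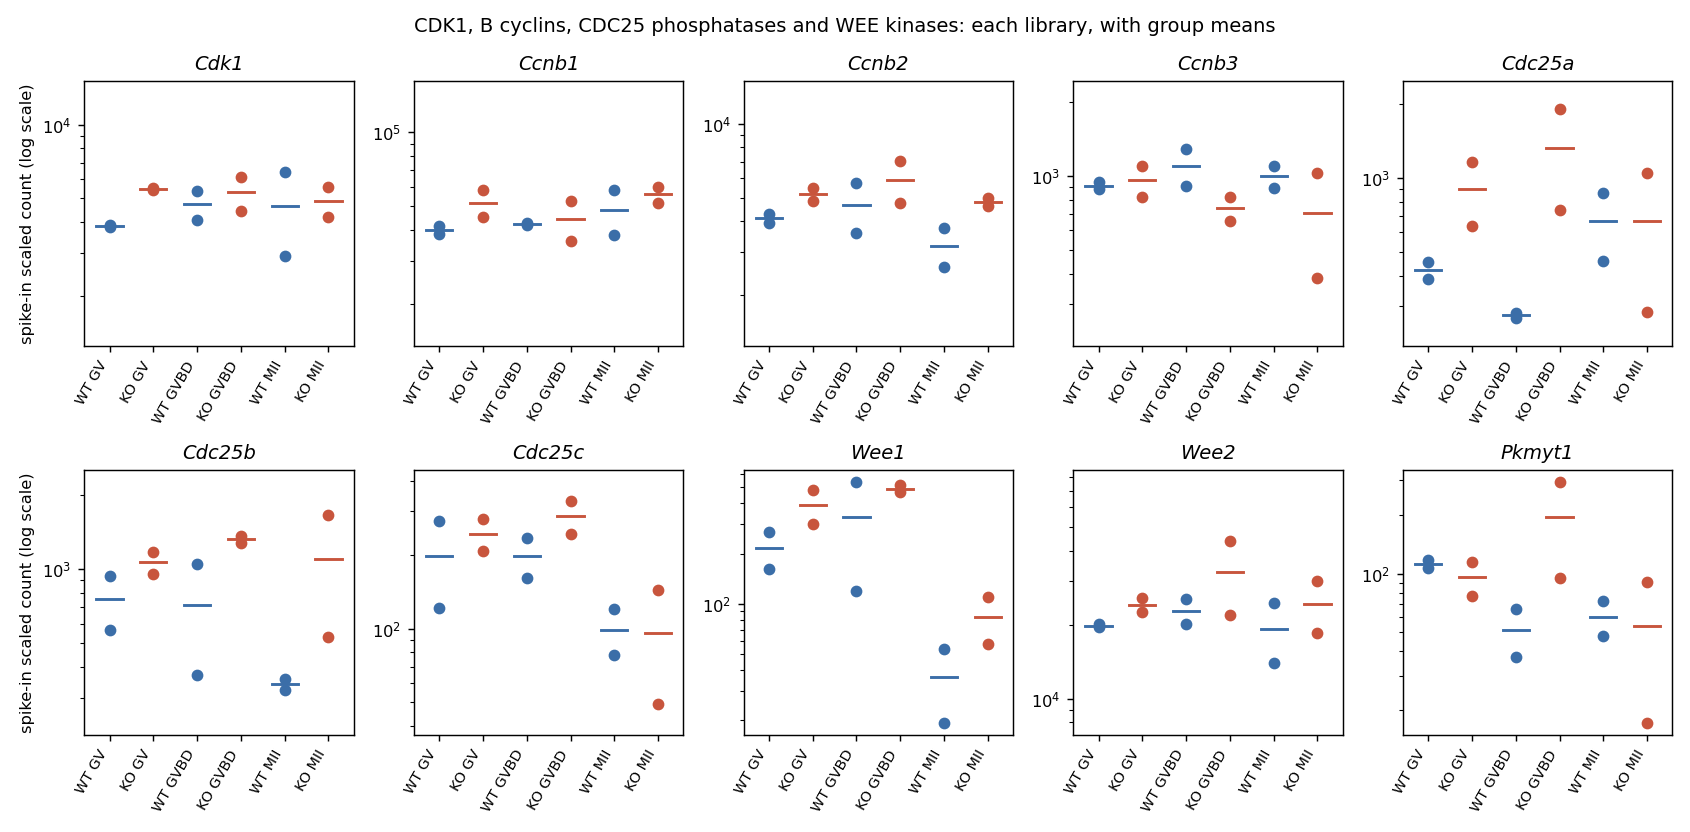
Spike-in scaled counts (log axis, each panel with its own range) of the 10 genes in the 6 groups, WT in blue and KO in red. Each point is a library and each bar the mean of 2. *Ccnb1* stays between 36252 and 60212 throughout, while *Wee1* falls to between 19.3 and 109 in the 4 MII libraries from 120 to 539 in the others.

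The first comparison asks whether oocytes without ALKBH5 carry a different amount of the switch's messengers before division begins. At GV, none of the 10 was called, meaning an adjusted p under 0.05 in edgeR's quasi-likelihood test and a fold change of at least 2, as against 0.0977% of 19452 genes tested. At an unadjusted p under 0.05 there were 2, *Cdk1* and *Cdc25a*, beside 17.9% of all genes, and DESeq2 called 1, *Cdc25a*, beside 3.48%. Spike-in scaled counts of 7 genes were higher in both KO libraries than in either WT library and 0 were lower, where the shares over all genes tested were 42.2% and 9.69%, and the median of the 10 log2 fold changes was 0.35 beside 0.36 over all genes. Under TMM scaling, which sets the bulk of genes equal between libraries, these medians were -0.0052 and 0.0031.

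*Cdk1* itself had 3284 and 2707 counts in WT GV and 2978 and 4322 in KO GV, or 3896 and 3817 against 5422 and 5514 after spike-in scaling. KO was higher in both libraries, by a log2 fold change of 0.50 ± 0.16 (SE, adjusted p = 0.204). *Cdc25a*, better known for cell cycle entry in somatic cells, had 326 and 321 counts in WT GV and 635 and 499 in KO GV. Its log2 fold change of 1.09 ± 0.36 had an adjusted p of 0.210 with edgeR and 0.0425 with DESeq2. For *Ccnb1* the difference was 0.37 ± 0.18 and for *Wee2* 0.28 ± 0.16, both near the median gene. *Wee1* (0.87 ± 0.42) and *Cdc25b* (0.50 ± 0.32) also had higher values in both KO libraries, without being called.

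At GVBD, when CDK1 is switched on, *Cdc25a* was higher in KO and was the 1 gene of the 10 called, while 2.54% of 19462 genes tested were called. Its counts were 211 and 304 in WT and 1154 and 673 in KO, so the groups did not overlap and the KO libraries differed between themselves. After spike-in scaling they were 283 and 269 against 1898 and 741, a log2 fold change of 2.26 ± 0.59 (4.77-fold, adjusted p = 0.0445). The call rested on the scaling and on single libraries: the value was 1.89 with an adjusted p of 0.156 under TMM scaling, and 1.42 with an adjusted p of 0.592 without KO GVBD replicate 1. It was also lost without WT GVBD replicate 1 (adjusted p = 0.250) or WT GVBD replicate 2 (0.423), and with all 12 libraries in one model (0.287), and was kept with DESeq2 (0.00258).

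The messengers of CDK1 and its cyclins did not differ at this stage beyond the spread between libraries. *Ccnb1* reached 41940 and 42693 spike-in scaled counts in WT GVBD and 52632 and 36252 in KO GVBD, so that the KO libraries lay on either side of WT. Its log2 fold change was 0.071 ± 0.49 (adjusted p = 0.969), and that of *Cdk1* 0.16 ± 0.51 (adjusted p = 0.925). Both turned negative under TMM scaling, at -0.27 and -0.13. *Ccnb2*, which can also activate CDK1 in oocytes, stood at 0.34 ± 0.52 (adjusted p = 0.822). *Ccnb3*, a cyclin that acts with CDK1 at anaphase of the first division, was lower in both KO libraries. It had 960 and 1024 counts in WT and 398 and 745 in KO, a log2 fold change of -0.57 ± 0.52 (adjusted p = 0.672).

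Of the inhibitory kinases, *Wee2* was 25448 and 20151 in WT GVBD and 43687 and 21974 in KO GVBD after spike-in scaling, a log2 fold change of 0.53 ± 0.51. The libraries overlapped, since KO GVBD replicate 2 lay between those of WT. *Pkmyt1* had 49 and 42 counts in WT and 58 and 268 in KO. Its log2 fold change of 1.93 ± 0.69 was not called (adjusted p = 0.161), and 1 KO library carried most of it. *Wee1* was 402 and 135 in WT and 283 and 468 in KO, again with overlap. Across the 10 genes, 4 were higher and 1 lower in KO without overlap at GVBD, where the shares over all genes were 30.3% and 17.9%. The higher ones were *Cdc25a*, *Pkmyt1*, *Cdc25b* and *Cdc25c*. *Cdc25b* had 1054 and 369 spike-in scaled counts in WT and 1273 and 1369 in KO, a log2 fold change of 0.89 ± 0.57 (adjusted p = 0.495). *Cdc25c* was at 0.54 ± 0.58 (adjusted p = 0.730).

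At MII edgeR called 0 of the 10, beside 0.803% of 17566 genes tested. None had an unadjusted p under 0.05, beside 7.32% of all genes, and DESeq2 called none, beside 1.97%. *Cdc25b* had the highest value, with 449 and 669 counts in WT and 1663 and 739 in KO. On the spike-in scale these were 358 and 322 against 1664 and 529, which do not overlap, and the log2 fold change was 1.69 ± 0.88 (adjusted p = 0.707). KO MII replicate 1 carried much of it: the value was 0.64 without that library and up to 2.29 without another. *Cdc25a*, which differed at GVBD, had 871 and 459 spike-in scaled counts in WT against 1046 and 285 in KO, a log2 fold change of 0.00044 ± 0.86. *Ccnb1* was at 0.21 ± 0.60 and *Cdk1* at 0.065 ± 0.76, so a difference of the size seen for *Cdk1* at GV lay within the errors here. The count of genes not overlapping was 3 higher and 0 lower, beside 22.1% and 10.3% of all genes.

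With the 3 stages fitted together and stage kept as a term, 0 genes of the 10 were called and 1.26% of 22004 tested. At an unadjusted p under 0.05 there were 3, beside 18.8% of all genes: *Cdc25a* (1.11 ± 0.44, adjusted p = 0.198), *Cdc25b* (1.03 ± 0.35, adjusted p = 0.146) and *Wee1* (0.88 ± 0.40, adjusted p = 0.257). DESeq2 called *Cdc25b* (adjusted p = 0.0385), beside 6.16% of all genes, and without KO MII replicate 2 edgeR called *Cdc25a* (1.43, adjusted p = 0.0426), beside 3.84%. *Ccnb3* was the 1 gene with a negative value, -0.33 ± 0.27 (adjusted p = 0.542). Under TMM scaling it was at -0.63 with an adjusted p of 0.0474, below the fold minimum. The median of the 10 was 0.40 beside 0.29 over all genes.

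**Figure D2:**
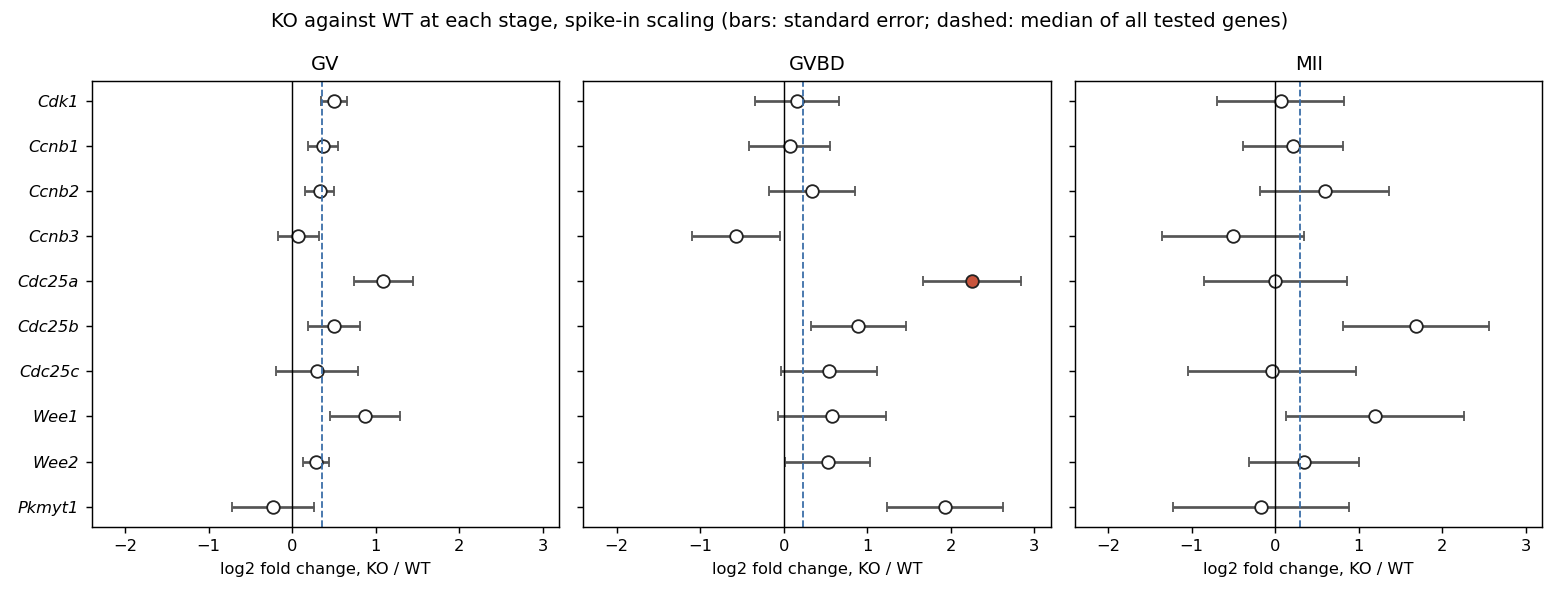
Log2 fold change, KO over WT, of the 10 genes at GV, GVBD and MII on the spike-in scale. Bars are standard errors, the dashed line is the median of all genes tested, and the filled point marks the 1 call, *Cdc25a* at GVBD (2.26). *Ccnb1* and *Cdk1* lie between 0.065 and 0.50 in all 3 panels.

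The second question is how the switch's messengers fare while the oocyte clears much of its RNA. Between GV and GVBD little moved in either genotype. In WT, edgeR called 0 of the 10 genes and 0.0511% of 19566 tested. None of the 10 had an unadjusted p under 0.05, beside 6.25% of all genes, and DESeq2 called none, beside 1.90%. *Ccnb1* changed by 0.082 ± 0.31, *Cdk1* by 0.29 ± 0.36 and *Wee1* by 0.61 ± 0.71 on the log2 scale. In KO edgeR and DESeq2 again called 0 of the 10, beside 0.220% of 19064 genes in edgeR and 1.18% in DESeq2, and 0 had an unadjusted p under 0.05, beside 7.65%. *Ccnb1* was at -0.22 ± 0.30 there and *Pkmyt1*, with the widest error, at 1.04 ± 0.62.

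From GV to MII the median gene fell by 1.06 in WT and by 1.17 in KO on the log2 scale of spike-in scaled counts, and the messengers of CDK1, its cyclins and *Wee2* lay well above it. In WT, *Ccnb1* was 41484 and 38500 at GV and 58478 and 38239 at MII, which overlap, for a log2 fold change of 0.27 ± 0.43 (adjusted p = 0.704). *Cdk1* was at 0.28 ± 0.47, *Ccnb3* at 0.13 ± 0.50, *Wee2* at -0.042 ± 0.45 and *Ccnb2* at -0.37 ± 0.47. *Cdc25a* was higher at MII in both libraries, at 871 and 459 spike-in scaled counts against 387 and 453, with 0.66 ± 0.53 (adjusted p = 0.379).

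*Wee1* fell, and it was the 1 gene of the 10 called in this comparison, where 30.9% of 18816 genes tested were called and nearly all of those (5747 of 5821) were lower. WEE1 is the WEE kinase of somatic cells. WT libraries had 137 and 190 counts of it at GV, 402 and 135 at GVBD but 67 and 40 at MII, which was below both earlier stages without overlap. The log2 fold change of MII against GV was -2.57 ± 0.70 (adjusted p = 0.00140). It was also called with TMM scaling (-1.72, adjusted p = 0.0437), and lost the call without WT GV replicate 2 (-2.17, adjusted p = 0.138) or WT MII replicate 2 (-2.01, adjusted p = 0.110). *Cdc25b*, *Cdc25c* and *Pkmyt1* changed about as the median gene did, by -1.15 ± 0.53 (adjusted p = 0.0863), -0.997 ± 0.64 and -0.90 ± 0.75. DESeq2 called *Cdc25b* (-1.15, adjusted p = 0.0395) beside *Wee1*, 2 of the 10, where it called 29.3% of all genes.

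Scaling decides how these values read. Under TMM scaling the median gene was at -0.14, and 5 of the 10 were called, beside 24.7% of all genes: *Cdk1* (1.14), *Ccnb1* (1.19), *Ccnb3* (1.08) and *Cdc25a* (1.56) were higher at MII and *Wee1* lower. *Ccnb2* (0.57) and *Wee2* (0.85) turned from negative to positive. The amount per spike-in of *Ccnb1* and *Cdk1* thus changed by less than its error, while their share of the library's counts rose in WT: *Ccnb1* went from 0.0963 and 0.0979% at GV to 0.198 and 0.201% at MII.

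Against GVBD, WT MII gave the same picture. *Wee1* was the 1 gene called, at -3.18 ± 0.78 (adjusted p = 0.000476), beside 27.8% of 19211 genes. Without WT GVBD replicate 1, which had 402 of the stage's counts against 135 in the other library, it was at -1.72 with an adjusted p of 0.328. *Cdc25a* was higher at MII than at GVBD in both libraries, 1.27 ± 0.71 (adjusted p = 0.181), and was called under TMM scaling at 2.14 together with *Ccnb1* at 1.09, while *Wee1* was not (adjusted p = 0.0540) and 25.6% of all genes were.

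In KO the standard errors from GV to MII were wider than in WT for all 10 genes, and the log2 fold change had the sign of that in WT for 5 of the 10. EdgeR called 0 of the 10, beside 3.28% of 18777 genes. *Wee1* alone had an unadjusted p under 0.05, as had 24.6% of all genes, and was called by DESeq2, as were 16.3%. KO libraries had 266 and 237 counts of *Wee1* at GV, 283 and 468 at GVBD, then 109 and 80 at MII, below the other stages here too. Its log2 fold change was -2.24 ± 0.81 (adjusted p = 0.128) against GV and -2.56 ± 0.89 (adjusted p = 0.0734) against GVBD. For MII against GVBD, edgeR called 0 of the 10 and 7.20% of 17966 genes. Again *Wee1* alone had an unadjusted p under 0.05, beside 20.9% of all genes, and was called by DESeq2 (adjusted p = 0.00771), beside 12.6%.

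*Ccnb1* (0.11 ± 0.45), *Wee2* (0.017 ± 0.50), *Ccnb2* (-0.11 ± 0.54) and *Cdk1* (-0.16 ± 0.54) again lay near 0 from GV to MII in KO, beside the median gene at -1.17. *Cdc25b* did too, at 0.040 ± 0.72, whereas it was at -1.15 in WT. Here too the scaling decides the reading. Under TMM scaling *Ccnb1* was at 1.33, *Wee2* at 1.13, *Ccnb2* at 1.12, *Cdk1* at 0.998 and *Cdc25b* at 0.99. The median gene was then at -0.14. None of these was called, while 951 of 18777 genes were. The KO MII libraries stood apart from each other. Without KO MII replicate 1, 6 of the 10 were called against GV, *Ccnb3*, *Cdc25a*, *Cdc25b*, *Cdc25c*, *Pkmyt1* and *Wee1*, all lower at MII, beside 54.2% of all genes, and 3 against GVBD, beside 32.6%. Without KO MII replicate 2, *Wee1* alone was called against GV (-1.85, adjusted p = 0.0396), beside 16.9% of all genes.

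Whether the change from GV to MII differed between the genotypes was tested as an interaction. EdgeR called 0 of the 10 and 0% of 20807 genes, while 0 of the 10 and 5.75% of all genes had an unadjusted p under 0.05, and DESeq2 called none of the 10 and 0.721% of all genes. The widest values were 1.19 ± 0.84 for *Cdc25b* and -1.09 ± 0.93 for *Cdc25a*, with an adjusted p of 0.99996 for both. In the point estimates of the separate fits, *Cdc25b* went down in WT (-1.15) and stayed near 0 in KO (0.040). *Cdc25a* went up in WT (0.66) and down in KO (-0.43). Leaving out single libraries moved the interaction values between 0.14 and 1.79 for *Cdc25b* and between -2.31 and -0.44 for *Cdc25a*. *Ccnb1* was at -0.16 ± 0.55 and *Wee1* at 0.33 ± 0.99. A difference between the genotypes in the course of any of these messengers was therefore not detectable with 2 libraries per group.

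**Figure D3:**
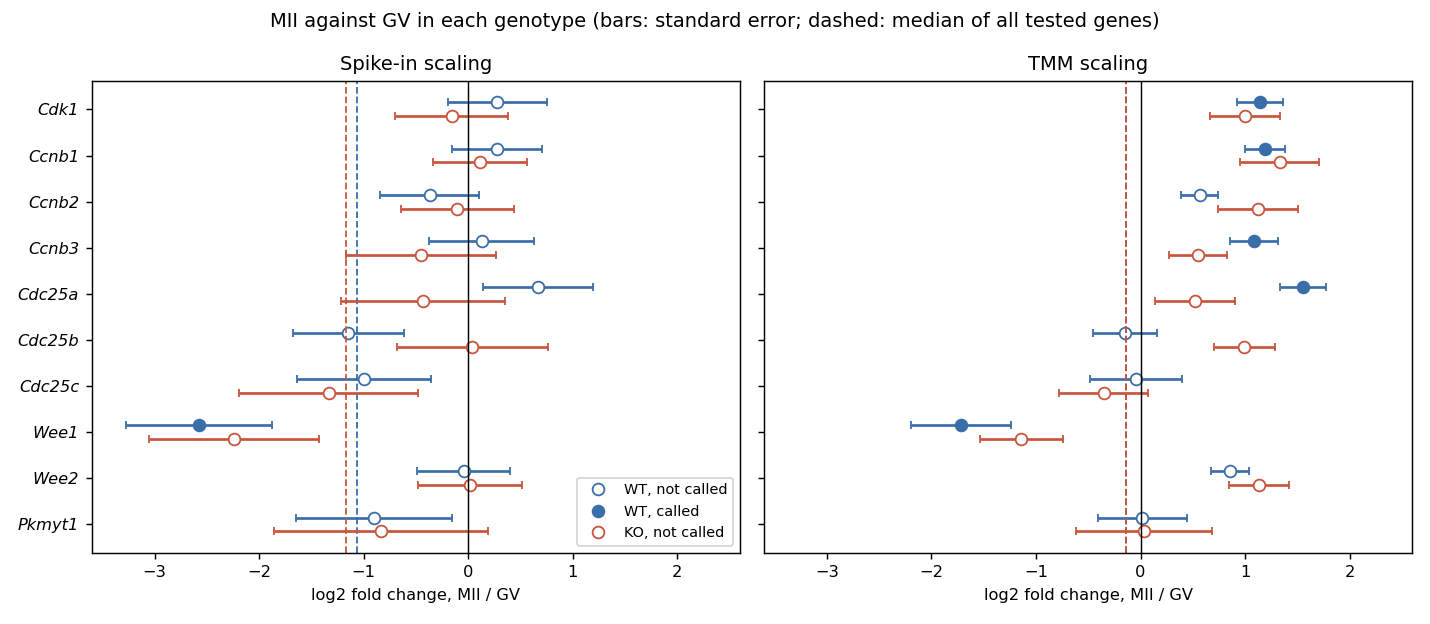
Log2 fold change of MII over GV in WT (blue) and KO (red), on the spike-in scale at left and after TMM scaling at right. Bars are standard errors, filled points are calls and dashed lines are the median of all genes tested. On the left *Cdk1*, *Ccnb1*, *Ccnb2*, *Ccnb3* and *Wee2* lie between -0.45 and 0.28 and only *Wee1* in WT is called (-2.57), while on the right 5 genes are called in WT.

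Within a library, ratios between genes do not depend on the scaling. *Ccnb1* made up 80.7 to 89.7% of the B cyclin counts per kilobase in every library, *Ccnb2* 9.35 to 17.9% and *Ccnb3* no more than 1.35%. *Wee2* made up 96.3 to 99.6% of those of *Wee1*, *Wee2* and *Pkmyt1*. The per-kilobase ratio of *Wee2* to *Wee1* went from 86.4 and 146 in WT GV to 545 and 856 in WT MII. The KO libraries had ratios of 62.8 and 88.3 at GV and 328 and 384 at MII, below both WT libraries at MII.

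The CDC25 phosphatases were more evenly mixed. *Cdc25b* held 52.1 and 53.4% of the CDC25 counts per kilobase in WT GV, *Cdc25a* 21.9 and 30.3% and *Cdc25c* 17.7 and 24.7%. In WT MII *Cdc25a* led, with 46.7 and 57.5% against 27.8 and 38.5% for *Cdc25b*. In KO MII *Cdc25b* led, with 59.8 and 62.3% against 28.5 and 32.0% for *Cdc25a*. Per kilobase, *Cdc25a* to *Cdc25b* stood accordingly at 1.21 and 2.07 in WT MII against 0.458 and 0.534 in KO MII, without overlap. At GV it was 0.409 and 0.581 in WT and 0.566 and 0.836 in KO, which overlap. At GVBD it was 0.228 and 0.620 in WT and 1.27 and 0.460 in KO, which also overlap and differ widely within each group. These ratios were looked at after the levels were known and are given as a description without a test.

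**Figure D4:**
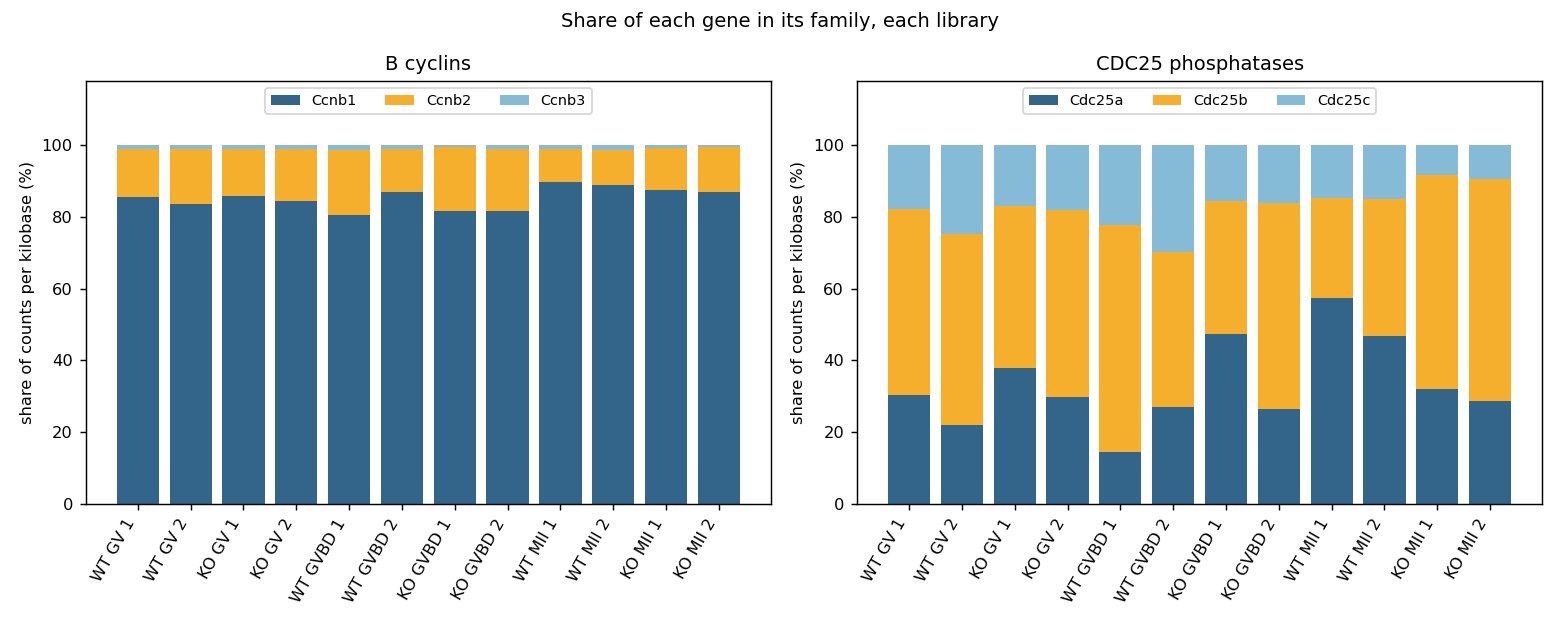
Share (%) of each gene in the summed counts per kilobase of its family, one stacked bar per library, with B cyclins at left and CDC25 phosphatases at right. *Ccnb1* is over 80.7% of the B cyclins in each library. *Cdc25a* exceeds *Cdc25b* in both WT MII libraries and in KO GVBD replicate 1, and in neither KO MII library.

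Likeness between genes was described over the 12 libraries on log2 counts after TMM scaling, where the points share their stage and library. *Cdk1* followed *Ccnb1* (Pearson's r = 0.938), *Wee2* (0.892) and *Ccnb2* (0.840), and *Wee1* ran opposite to *Ccnb1* (r = -0.816) and *Ccnb3* (-0.825). *Cdc25b* was close to none of the cyclins, with r between -0.252 and 0.394. Among 9191 genes, the one most like *Ccnb1* was *Tmem131l* (r = 0.992), the one most like *Wee1* was *Plekha6* (0.968), the one most like *Ccnb3* was *Sh3kbp1* (0.972) and the one most like *Ccnb2* was *Tmem38b* (0.969). *Cdc25a* was closest to *Ppme1* (0.911), *Cdc25b* to *Mtmr14* (0.914) and *Cdc25c* to *Il6st* (0.904). *Tcl1b4* (0.967, for *Cdk1*) and *Fam90a1a* (0.972, for *Wee2*) belong to multicopy families, so their counts are uncertain.

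The wider control of CDK1 was taken as 33 genes in lists by role, of which 32 were tested in each comparison. Between KO and WT, edgeR called 0 of them at GV, GVBD and MII, and 0 over all stages. The shares called over all genes were 0.0977%, 2.54%, 0.803% and 1.26%. At an unadjusted p under 0.05 there were 5, 5, 0 and 12 of the 32, beside 17.9%, 14.9%, 7.32% and 18.8% of all genes. DESeq2 called 0, 2, 0 and 0, those at GVBD being *Cdc20* and *Ensa*, beside 3.48%, 4.63%, 1.97% and 6.16%. Their median log2 fold change was 0.37 at GV, 0.56 at GVBD and 0.53 at MII, where the median gene stood at 0.36, 0.23 and 0.30. The interaction of genotype with the step from GV to MII called 0 of them in edgeR, with 0 at an unadjusted p under 0.05 and 0 in DESeq2, beside 0%, 5.75% and 0.721% of all genes.

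From GV to MII in WT, 7 of the 32 fell and 0 rose, beside 30.5% and 0.393% of all genes. Its median was -0.52 beside -1.06 over all genes. DESeq2 called the same 7. The 7 were *Arpp19* (-3.78 ± 0.51), the PP2A inhibitor that Greatwall kinase activates, *Ppp2ca* (-2.79 ± 0.53), a catalytic subunit of PP2A, *Ccnh* (-3.44 ± 0.57) and *Cdk7* (-1.77 ± 0.48), of the kinase that activates CDK1 by phosphorylation, *Fzr1* (-2.37 ± 0.60), the APC/C activator of the GV arrest, *Ywhah* (-2.99 ± 0.55), whose protein binds and restrains CDC25, and *Cdk2* (-2.44 ± 0.81). Under TMM scaling 4 were called lower and 9 higher, beside 16.2% and 8.47% of all genes, among the latter *Cdc20*, *Plk1*, *Cks1b* and *Cks2*, so the direction of this list's calls depends on the scaling. In KO 2 fell from GV to MII, *Arpp19* (-2.99 ± 0.57) and *Ccnh* (-3.03 ± 0.69), beside 3.28% of all genes lower. DESeq2 called 5, these and *Cdkn1a*, *Ppp2ca* and *Ywhah*, beside 16.3% of all genes.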

How the data were processed

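RNA of pooled oocytes was sequenced in 12 libraries. The deposited table holds raw counts of genes and ERCC sequences, not normalized. Per the methods and processing notes, the authors used Cutadapt 1.9 for trimming, HISAT2 2.0.4 for alignment to GRCm38 plus ERCC (unique alignments only) and StringTie 1.3.4d. The step that made whole counts and the use of strand are not given in the sources used here. The methods describe SMART-seq cDNA from poly(A), whereas the sample protocol describes a bulk dUTP preparation. No molecular identifiers are named, so PCR copies may count as separate reads.

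Each comparison was fitted on its own groups with edgeR 4.0.16 (filterByExpr, glmQLFit, glmQLFTest, two-sided, R 4.3.3), with library sizes in proportion to ERCC counts. Calls needed a Benjamini-Hochberg adjusted p under 0.05 over all genes tested and an absolute log2 fold change of at least 1. Standard errors came from the fold change and F statistic. Likeness used log2 TMM-scaled counts with a pseudocount of 0.5 and genes averaging 100 counts or more. Scripts were tested on simulated data. Members, lists and tests were chosen with earlier results of these data known. The genes named are all 10 of the switch, *Alkbh5*, the most alike gene of each that averaged 100 counts or more, and genes of the pathway lists called in a comparison. The latter, in the stage comparisons, and those that DESeq2 or TMM scaling alone called, were named after their values were seen. Alternatives were 2 other scalings (TMM, median of ratios), the ERCC sequences of 10 or more counts, no filter, no fold minimum, DESeq2 1.42.0, one model of all 12 libraries, a replicate block, leaving out each library and, added after seeing the data, crossed numbers and the filter on spike-in scaled library sizes.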

Additional observations from a re-analysis of the deposited data

How the results depend on the processing

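When the called genes among the 10 were counted again under other settings, 129 counts stayed the same or within 1.5 times the value given and 28 did not. Most comparisons had a count of 0, and each 0 that stayed 0 is among the 129. Every count above 0 moved under some setting. The cause was not tested. With TMM and with median-of-ratios scaling the count was 0 for KO against WT at GVBD, 2 for WT MII against GVBD and 5 for WT MII against GV. Over all genes TMM scaling called 29 of 19462, 4916 of 19211 and 4646 of 18816 in these comparisons. Median-of-ratios scaling called 37, 5021 and 4779. With DESeq2 it was 1 for KO against WT at GV and over all stages, 2 for WT MII against GV (*Wee1* and *Cdc25b*), and 1 for KO MII against GVBD and against GV. All 12 libraries in one model gave 0 for KO against WT at GVBD, where 12 of 22004 genes were called. For KO MII against GVBD that model gave 1, beside 2366 of 22004 genes. The filter on spike-in scaled library sizes gave 0 for KO against WT at GVBD, beside 387 of 19367 genes. Without a filter the count over all stages was 2, beside 1181 of 33089 genes. Leaving out each library gave 0 to 1 for KO against WT at GVBD, WT MII against GVBD, WT MII against GV and KO against WT over all stages, 0 to 3 for KO MII against GVBD and 0 to 6 for KO MII against GV. A lone library was then assumed to vary like the other group.

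After TMM scaling, which removes differences in RNA per spike-in, same-number deviations correlated between -0.224 and 0.222 over 13273 genes. On the spike-in scale the numbers did run alike. Replicate 1 had more gene counts per ERCC count than replicate 2 in every group. Beside the groups given above, these were 105 and 98.9 in WT GV, 128 and 111 in KO GV, and 121 and 98.5 in KO GVBD. Whether the numbers mark pairs is therefore not settled. With a replicate block the count was 0 for KO against WT at GVBD (*Cdc25a*, adjusted p = 0.102), beside 214 of 19462 genes. It was 2 for WT MII against GVBD, beside 6099 of 19211, and 1 for KO MII against GVBD, beside 2443 of 17966. The other 8 counts did not change. Calls over all genes did, from 616 to 2462 for KO MII against GV and from 19 to 0 for KO against WT at GV. With the numbers crossed, where those correlations were below -0.1, the count was 0 for KO against WT at GV and at MII and 0 for KO MII against GVBD. Over all genes the calls were then 218 of 19452, 0 of 17566 and 204 of 17966.

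Signs turned for values near 0. For WT MII against GV, TMM and median-of-ratios scaling gave 0.57 and 0.61 for *Ccnb2* and 0.85 and 0.90 for *Wee2*, and leaving out each library gave -0.40 to 0.74 for *Cdk1*, -0.065 to 0.55 for *Ccnb1*, -0.034 to 0.27 for *Ccnb3* and -0.51 to 0.31 for *Wee2*. For KO MII against GV, the scalings gave 0.998 and 1.03 for *Cdk1*, the replicate block gave -0.022 for *Wee2* and -0.18 for *Cdc25b*, and single libraries left out gave -0.061 to 0.31 for *Ccnb1*, -0.38 to 0.029 for *Cdk1*, -0.38 to 0.33 for *Wee2* and -1.01 to 0.64 for *Cdc25b*. For KO against WT at GVBD, the scalings gave -0.27 and -0.26 for *Ccnb1* and -0.13 and -0.13 for *Cdk1*, and single libraries left out gave -0.22 to 0.31 and -0.084 to 0.37. At MII, *Cdc25a* was at -0.40 and -0.41 with the scalings, -0.21 with the replicate block straight or crossed and -1.22 to 0.65 with single libraries left out, and *Ccnb1* at -0.064 to 0.55 with the latter. For the genotype difference, *Ccnb1* was at 0.034 and 0.11 with the scalings and -0.44 to 0.18 with single libraries left out, and *Wee1* at -0.23 to 1.23.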
